A study of Mus musculus with 18 samples.

Results

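The noncoding RNAs described here are the nuclear RNAs Malat1 and Neat1, the small nucleolar RNA (snoRNA) host genes Gas5, Snhg1, Snhg3, Snhg8 and Snhg12, and Mir17hg, the host gene of the miR-17-92 microRNAs. They were chosen by name, and 7 of the 8 had a row of their own among the 37991 genes of the count tables. No row was matched to Snhg8, which was not analysed here. All 7 RNAs with a row passed the filter on low counts, as did 17240 genes in all. A gene passed when its normalized counts averaged 3 or more in any of the groups.

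The 18 RNA-seq libraries were made from splenic CD4+ T cells of Tg4-H2u mice, males and females of 6 weeks or older, and fall into 6 groups of 3 biological replicates. Every mouse carried the Tg4 transgene, a T cell receptor for a peptide of myelin basic protein, and the sources used here do not give whether a library came from 1 mouse or from several. Tolerized mice (T) had been given 7 doses of the peptide under the skin in rising amounts, and control mice, the source of mainly naive cells (N), had been given PBS on the same schedule. N0 and T0 cells were taken 2 h after a last injection of PBS, and NAg and TAg cells 2 h after a last injection of 80 µg of peptide antigen (Ag). NPI and TPI cells were placed in culture for 2 h with 20 ng/ml phorbol ester (PMA) and 2 µM calcium ionophore (together PI), which act below the receptor. No cells were cultured without PI, so that effects of culture and of PI cannot be told apart.

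Total counts ranged from 10758571 to 24119489 per library, with a median of 12268935, and the most deeply sequenced libraries were those of NPI (14895843 to 19878476) and TPI (16196386 to 24119489). None of the 7 T cell markers Cd3d, Cd3e, Cd3g, Cd4, Lck, Cd28 and Trac was at 0 throughout the 18 libraries. They summed to between 3054 and 3900.3 CPM (counts scaled to a common library total) in the N0, T0, NPI and TPI libraries. In the NAg and TAg libraries they summed to between 1529.6 and 2103. The 10 neutrophil markers summed to between 179 and 325 CPM in T0 and TAg and to 43.3 or fewer in the other groups. None of the 10 was at 0 throughout the 18 libraries. The 8 erythroid markers summed to between 23.4 and 229 CPM in T0 and to between 2.88 and 18.9 in N0. Y-linked genes had at most 15 counts in any N0 or NAg library and at least 5599 in every NPI and TPI library, whereas T0 and TAg held libraries of both kinds, so that sex and PI cannot be told apart within naive cells. In these bulk libraries, fewer cells of a type and less RNA per cell cannot be told apart either.

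Malat1 is an abundant RNA of nuclear speckles, the nuclear domains where splicing factors collect, and Neat1 is the RNA around which paraspeckles are built together with proteins such as SFPQ and NONO. The snoRNA host genes carry snoRNAs in their introns, which guide the modification and processing of ribosomal RNA, while the spliced host RNAs have little coding capacity and several of them are known targets of nonsense-mediated decay. Mir17hg is the primary transcript of a microRNA cluster that supports the growth and survival of lymphocytes and is known to be transcribed under the control of MYC.

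The mature microRNAs of Mir17hg are shown because they define what the host gene makes, although their own levels were not measured in these libraries. The sequences are from RefSeq (GRCm38.p6, chromosome 14, plus strand), read 5′ to 3′, with the seed (bases 2 to 8) in capitals.
miR-17-5p: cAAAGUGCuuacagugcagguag
miR-20a-5p: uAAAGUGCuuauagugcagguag
miR-18a-5p: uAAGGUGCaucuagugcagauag
miR-19a-3p: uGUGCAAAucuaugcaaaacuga
miR-19b-3p: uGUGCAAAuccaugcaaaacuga
miR-92a-3p: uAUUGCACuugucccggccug
The 6 microRNAs fell into 4 seed groups, with AAAGUGC shared by miR-17-5p and miR-20a-5p and GUGCAAA shared by miR-19a-3p and miR-19b-3p.

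The start regions of the 4 snoRNA host genes are shown because these RNAs moved together across the groups, as described further on. Each run covers 100 bases before and 50 after a RefSeq start in GRCm38.p6, 5′ to 3′ on the strand of the gene. Capitals mark the longest run of C and T in the window from 15 bases before to 35 after the start and, in Gas5, the letters TGACGTCA of a cAMP response element. Of the 2 RefSeq starts of Gas5, the second is shown (chr1:161035066-161035215, plus strand), beside Snhg1 (chr19:8723387-8723536, plus strand), Snhg12 (chr4:132308578-132308727, plus strand) and Snhg3 (chr4:132353637-132353786, minus strand).
Gas5: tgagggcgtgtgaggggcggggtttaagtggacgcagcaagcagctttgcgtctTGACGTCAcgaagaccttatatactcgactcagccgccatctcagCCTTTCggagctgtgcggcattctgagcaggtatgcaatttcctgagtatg
Snhg1: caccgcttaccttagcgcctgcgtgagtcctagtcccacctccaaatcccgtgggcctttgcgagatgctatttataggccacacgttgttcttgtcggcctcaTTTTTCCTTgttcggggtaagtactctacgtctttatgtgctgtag
Snhg12: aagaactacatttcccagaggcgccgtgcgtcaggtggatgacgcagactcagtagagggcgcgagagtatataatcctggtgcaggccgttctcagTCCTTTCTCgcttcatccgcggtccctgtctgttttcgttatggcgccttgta
Snhg3: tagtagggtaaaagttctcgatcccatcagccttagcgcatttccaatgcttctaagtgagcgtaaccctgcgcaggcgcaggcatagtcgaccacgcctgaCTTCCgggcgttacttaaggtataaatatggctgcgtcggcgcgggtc
In that window the longest run of C and T had 9 bases in Snhg1 and in Snhg12, 6 in Gas5 and 5 in Snhg3, and 17.9% of 32851 RefSeq promoters held such a run of at least 8 bases. RNAs that begin with a C and a run of pyrimidines (5′ TOP RNAs) are known to include the ribosomal protein mRNAs and several snoRNA host RNAs. Over the whole promoter of 250 bases before and 50 after a start, searched on both strands, TGACGTCA was found in the second start of Gas5 (first base at -46) and in 1.79% of all promoters. The letters CACGTG (the E-box bound by MYC), found in 7.15% of promoters, and TGANTCA (an AP-1 element), found in 7.81%, were not in the windows of Malat1, Gas5, Snhg1, Snhg3 or Snhg12. The RefSeq start listed for Mir17hg lies inside the microRNA cluster, so that its window is not the promoter of the host gene and is left out here.

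Positions of the counted genes are given in NCBIM37 (mm9), the build of the counts. Malat1 (ENSMUSG00000092341, chr19:5795690-5802671, minus strand) and Neat1 (ENSMUSG00000092274, chr19:5824708-5845478, minus strand) are neighbours 22036 bp apart, each annotated as a single exon block, of 6982 bp and 20771 bp. Snhg12 (ENSMUSG00000086290, chr4:131864593-131866939, plus strand) and Snhg3 (ENSMUSG00000085241, chr4:131903929-131909601, minus strand) lie 36989 bp apart. Gas5 (ENSMUSG00000053332) spans chr1:162964553-162968670 on the plus strand and Snhg1 (ENSMUSG00000090867) chr19:8797986-8800932 on the plus strand. Mir17hg (ENSMUSG00000089726) spans chr14:115442101-115445949 on the plus strand, and its 6 microRNA genes begin 792 bp after its first base and fill 836 bp.

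What the counts of these genes hold was read from the tables. Of 352 genes whose exons lie wholly inside exons of another gene on the same strand, 0 had a count, against 111 of 155 (71.6%) that lie only inside exons of the opposite strand. Reads shared by genes of the same strand were therefore given to neither, and the strand was used. All 9 snoRNA genes in Gas5 exons, all 8 in Snhg1, all 3 in Snhg12 exons and all 6 microRNA genes in Mir17hg were at 0, and the reads over them were missing from the host counts too. The annotation of Snhg1 is 1 block of 2947 bp that covers its introns, so that its counts include unspliced RNA. Annotated exons of Gas5 (3760 bp in 3 blocks) and Snhg12 (1626 bp in 2 blocks) also take in snoRNA genes. The counts of these 2 hosts can therefore hold unspliced RNA as well. Snhg3 had 692 bp of exon shared with no gene of its strand, since it overlaps Rcc1 and Snora73a, and was the least counted of the 7.

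Levels are given as normalized counts, which are counts divided by the library size after TMM scaling. Per kb of unshared exon, Malat1 lay at 35074 ± 1425 normalized counts in N0 (SD, n = 3), far above Neat1 at 346 ± 12.8, Gas5 at 345 ± 26.0, Snhg1 at 266 ± 40.5, Snhg12 at 217 ± 4.52, Snhg3 at 163 ± 22.2 and Mir17hg at 110.1 ± 19.9 (SD, n = 3 each). Malat1 alone took between 1.31% and 3.10% of all counts in a library. In TPI, Mir17hg was the second highest per kb, at 1290.1 ± 157, above Neat1 at 620.4 ± 35.4 and Gas5 at 567 ± 27.4 (SD, n = 3 each). The plot of normalized counts by library shows the levels that follow.

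**Figure D1:**
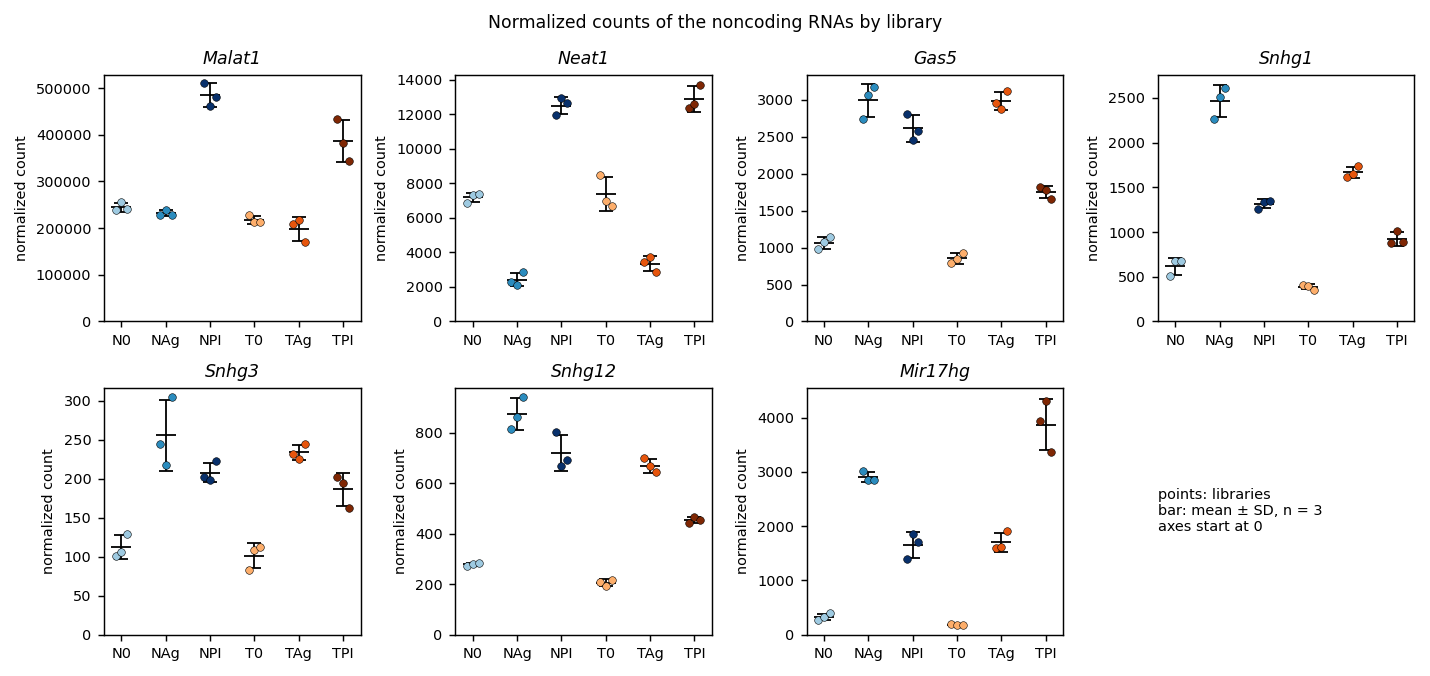
Normalized counts (y axes, linear and starting at 0) of the 7 noncoding RNAs in each library of the 6 groups (x axes). Points are libraries and bars the mean ± SD (n = 3). Neat1 is lowest in NAg and TAg and highest in NPI and TPI, the 4 snoRNA host genes are lowest in N0 and T0, and Mir17hg is highest in TPI.

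The first question was how each RNA responded to antigen in vivo. In naive cells 5 of the 7 RNAs rose after Ag (Gas5, Snhg1, Snhg3, Snhg12 and Mir17hg), Neat1 fell, and Malat1 did not pass the test. In tolerized cells the same 5 RNAs rose, Neat1 fell, and Malat1 again did not pass. At an adjusted p under 0.05, edgeR called 65.5% of all tested genes in NAg:N0 (32.1% higher, 33.4% lower) and 59.8% in TAg:T0 (29.9% higher, 29.8% lower), so that a call by itself was common in both comparisons. Across the 7 RNAs the log2 fold change had a median of 1.49 in NAg:N0 and 1.70 in TAg:T0, against 0.00 and -0.05 for all tested genes.

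Mir17hg had the largest fold of the 7 RNAs after Ag. Its normalized counts were 273, 325 and 393 in N0 and 3023, 2852 and 2845 in NAg. In tolerized cells they were 198, 177 and 188 in T0 and 1591, 1616 and 1909.7 in TAg. Every Ag library lay above every resting library. The log2 fold change was 3.14 ± 0.13 (SE) in NAg:N0, an 8.80-fold rise (adjusted p = 2.70e-14), and 3.18 ± 0.14 in TAg:T0, a 9.09-fold rise (adjusted p = 6.28e-14). Myc, which encodes the transcription factor named above, rose by a log2 fold change of 5.34 in NAg:N0 and 4.65 in TAg:T0.

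Snhg1, host of a group of box C/D snoRNAs, had the largest fold among the 4 snoRNA hosts described here. It had 510.1, 672 and 675 in N0 and 2262, 2514 and 2615 in NAg. They were 408, 400.1 and 355 in T0 and 1612, 1651 and 1737 in TAg. The groups did not overlap in either cell state, and the log2 fold change was 1.99 ± 0.09 in NAg:N0 (adjusted p = 1.88e-15) and 2.103 ± 0.096 in TAg:T0 (adjusted p = 1.79e-15). Snhg12, which carries Snora16a, Snora44, Snora61 and Snord99, rose from 273, 282 and 285 in N0 to 815, 865 and 941 in NAg. It rose from 211, 192 and 217 in T0 to 699, 669 and 643 in TAg, with log2 fold changes of 1.64 ± 0.09 and 1.70 ± 0.09.

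Gas5, known as a transcript that accumulates when growth is arrested and translation is slowed, rose as well. Its normalized counts were 983, 1078 and 1142 in N0 and 2741, 3060.3 and 3182 in NAg. They were 787, 840.0 and 931 in T0 and 2957, 2878 and 3119.7 in TAg. The NAg and TAg libraries overlapped with each other and lay above all resting libraries, with a log2 fold change of 1.49 ± 0.08 in NAg:N0 (adjusted p = 2.45e-14) and 1.81 ± 0.08 in TAg:T0 (adjusted p = 1.19e-15). Snhg3, which hosts the box H/ACA snoRNAs Snora73a and Snora73b, had fewer counts and the smallest of these rises. It went from 101, 106 and 129.9 in N0 to 244, 217 and 306 in NAg, and from 83.1, 109 and 112 in T0 to 232, 225 and 245 in TAg. The log2 fold change was 1.19 ± 0.14 in NAg:N0 and 1.21 ± 0.14 in TAg:T0, and the groups did not overlap.

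Neat1 was the only one of the 7 that fell after Ag. Its normalized counts lay at 6884, 7300.4 and 7382 in N0 and 2300.0, 2106 and 2858 in NAg. They were 8478, 6993 and 6685 in T0 and 3446, 3717 and 2860.5 in TAg. All 6 Ag libraries lay below all 6 resting libraries. Neat1 fell by 1.57 ± 0.11 on the log2 scale in NAg:N0 (2.97-fold, adjusted p = 2.06e-11) and by 1.15 ± 0.11 in TAg:T0 (2.21-fold, adjusted p = 4.73e-09).

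Malat1, the neighbour of Neat1, changed little on the TMM scale. Its normalized counts were 237971, 256288 and 240401 in N0 and 229167, 239195 and 228261 in NAg. They were 227619, 213824 and 212829 in T0 and 208398, 216672 and 169519 in TAg. The groups overlapped in both cell states, and the log2 fold change was -0.08 ± 0.09 in NAg:N0 (adjusted p = 0.489) and -0.14 ± 0.09 in TAg:T0 (adjusted p = 0.214). As a share of all counts, however, Malat1 went from between 2.16% and 2.28% in N0 to between 1.53% and 1.61% in NAg, and from between 1.94% and 2.30% in T0 to between 1.31% and 1.66% in TAg, without overlap. With libraries scaled by size alone, Malat1 was called lower after Ag (-0.48 in NAg:N0, -0.47 in TAg:T0). That scaling also moved the median of all tested genes to -0.42 and -0.40, so that Malat1 lay close to that median under either scaling.

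The second question was how the RNAs responded when the receptor was bypassed with PI. All 7 were higher after PI in both cell states, in NPI:N0 (61.4% of all tested genes called, 28.6% higher) and in TPI:T0 (68.3% called, 32.0% higher). At least a 2-fold difference was seen for 4 of the 7 in each comparison, namely Gas5, Snhg1, Snhg12 and Mir17hg. Of all tested genes, 10.1% in NPI:N0 and 13.3% in TPI:T0 were called higher by at least 2-fold with a group mean above 50 normalized counts. For the 7 RNAs the median log2 fold change was 1.09 in NPI:N0 and 1.04 in TPI:T0, against -0.06 and -0.10 for all tested genes. These calls depend on the scaling more than those after Ag. With library size alone, the median of all tested genes moved to -0.65 in NPI:N0 and -0.92 in TPI:T0, and 6 and 4 of the 7 were called higher. Under that scaling 11825 and 13002 of 17283 tested genes were called in either direction. With scores of erythroid and myeloid markers in the model, calls over all 17240 tested genes in TPI:T0 fell from 11768 to 5080. In that fit 3 of the 7 RNAs passed. Of the 4 that did not, Neat1 had a log2 fold change of 0.79 ± 0.37 and Snhg3 of 0.84 ± 0.45, which were close to their values without the scores but had larger errors, whereas Malat1 went to 0.47 ± 0.29 and Gas5 to 0.61 ± 0.23. The PI libraries also had the highest mitochondrial shares of counts, at 2.14% to 2.58% in NPI and 1.27% to 1.34% in TPI, against 0.757% to 0.943% elsewhere, and the part of this in the results was not tested.

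**Figure D2:**
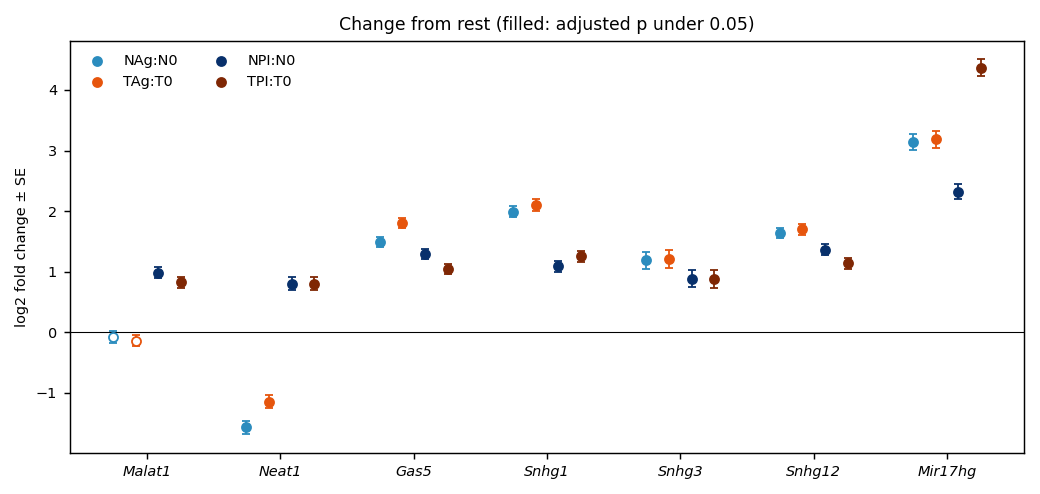
Log2 fold change from rest (y axis, ± SE) of each RNA (x axis) after Ag or PI in naive and tolerized cells, from the edgeR model with 3 libraries a group. Filled points had an adjusted p under 0.05; Neat1 lies below 0 after Ag and above 0 after PI, and the 4.37 of Mir17hg in TPI:T0 is the highest point.

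Neat1 moved in opposite directions after the 2 treatments. Its normalized counts were 11943, 12937 and 12659.6 in NPI and 12350.5, 12582 and 13725 in TPI, above every resting library. The log2 fold change was 0.80 ± 0.11 in NPI:N0 (adjusted p = 1.07e-06) and 0.80 ± 0.11 in TPI:T0 (adjusted p = 7.65e-07), but 0.22 and -0.001 with libraries scaled by size alone, where neither passed the test. The direct contrast of both treatments rested less on the scaling. Neat1 was higher in PI than in Ag by 2.37 ± 0.11 in naive cells and by 1.95 ± 0.11 in tolerized cells (adjusted p = 2.82e-14 and 7.35e-13).

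Malat1 counts were 512101, 460856 and 480673 in NPI and 434810.1, 381841 and 343349 in TPI. All 6 lay above the resting libraries of their cell state, with a log2 fold change of 0.99 ± 0.09 in NPI:N0 (adjusted p = 2.48e-09) and 0.83 ± 0.09 in TPI:T0 (adjusted p = 3.24e-08). Its share of all counts was between 2.81% and 3.10% in NPI and between 1.96% and 2.34% in TPI, which overlapped the 1.94% to 2.30% of T0. With library size alone the difference was 0.41 in NPI:N0 (adjusted p = 2.91e-04) and 0.02 in TPI:T0 (adjusted p = 0.838).

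The snoRNA host genes rose with PI, with smaller log2 fold changes from rest than with Ag in both cell states. Gas5 had normalized counts of 2813, 2454 and 2582 in NPI and 1821, 1781 and 1659 in TPI, with log2 fold changes from rest of 1.29 ± 0.08 and 1.04 ± 0.08. Snhg1 had 1259.7, 1338 and 1351 in NPI and 878, 1016 and 884 in TPI (1.09 ± 0.09 and 1.25 ± 0.10). Snhg12 had 804, 667 and 691 in NPI and 444, 465 and 454 in TPI (1.36 ± 0.09 and 1.14 ± 0.09). Snhg3 had 203, 199 and 222 in NPI and 203, 194 and 163 in TPI (0.89 ± 0.14 and 0.88 ± 0.14). Every host lay above the resting libraries of its cell state in all PI libraries.

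Set directly against Ag, PI left the hosts lower, in a contrast added after the data had been seen. In tolerized cells all 4 hosts were lower in TPI than in TAg, and in naive cells 3 of the 4 were lower in NPI than in NAg (63.8% of all tested genes called in TPI:TAg, 32.3% lower, and 64.4% in NPI:NAg, 31.0% lower). The difference was -0.90 ± 0.09 in NPI:NAg and -0.85 ± 0.09 in TPI:TAg for Snhg1, and -0.28 ± 0.08 and -0.56 ± 0.08 for Snhg12. For Gas5 it was -0.20 ± 0.08 in NPI:NAg (adjusted p = 0.0314), where the libraries overlapped and the call was lost without any 1 of NAg replicates 2 and 3 and NPI replicates 2 and 3 (-0.19 to -0.15), and -0.77 ± 0.08 in TPI:TAg (adjusted p = 4.94e-09). For Snhg3 it was -0.30 ± 0.14 (adjusted p = 0.0611), which passed the test without NAg replicate 2 (-0.40), and -0.33 ± 0.14 (adjusted p = 0.0388), which did not pass without any 1 of the TAg replicates or TPI replicates 2 and 3 (-0.36 to -0.24). No host differed by 2-fold here, whereas 25.5% of all tested genes in TPI:TAg and 27.5% in NPI:NAg did by the 2-fold rule given above. Male and female libraries separate NPI from NAg in the same way as the treatments.

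Mir17hg differed most between cell states after PI. Its normalized counts were 1394, 1857 and 1705 in NPI and 3941, 4301 and 3368 in TPI. The highest naive PI library thus lay below the lowest tolerized one. From rest, Mir17hg rose by 2.32 ± 0.13 on the log2 scale in NPI:N0 (5.0-fold, adjusted p = 6.69e-12) and by 4.37 ± 0.14 in TPI:T0 (20.6-fold, adjusted p = 7.50e-16). The difference between both responses was 2.04 ± 0.18 (adjusted p = 2.44e-07). It was the 1 call among the 7 RNAs in that contrast, where 20.2% of all tested genes were called, and it remained called with library size alone (1.82, adjusted p = 4.73e-06). Against Ag, Mir17hg was lower with PI in naive cells (-0.82 ± 0.12 in NPI:NAg) and higher with PI in tolerized cells (1.18 ± 0.12 in TPI:TAg). With scores of erythroid and myeloid markers in the model the first of these was -0.44 and did not pass the test.

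The third question was how the RNAs differed between tolerized and naive cells. At rest 4 of the 7 were lower in T0 than in N0 and 0 were higher, where 20.4% of all tested genes were called (8.42% higher, 12.0% lower). After Ag 3 were lower and 1 was higher in TAg:NAg, where 39.4% were called (20.9% higher, 18.5% lower), and after PI 4 were lower and 1 was higher in TPI:NPI, where 37.9% were called (18.2% higher, 19.7% lower). For the 7 RNAs, the log2 fold changes had medians of -0.33, -0.23 and -0.33, against -0.08, 0.01 and -0.04 for all tested genes. By the 2-fold rule 0 of the 7 were called in T0:N0 and TAg:NAg and 1 in TPI:NPI (Mir17hg), against 3.25%, 5.66% and 5.60% of all tested genes. The 4 calls in T0:N0 were lost when scores of erythroid and myeloid markers, higher in T0 than in N0, were added to the model. There 0 of 7 passed, and the values for Gas5, Snhg1, Snhg12 and Mir17hg were -0.01, -0.50, -0.21 and -1.17. Calls over all 17240 tested genes fell as well, from 3519 to 47, so that the loss was not particular to these RNAs. With the same scores 1 of 7 passed in TAg:NAg, where calls over all tested genes fell from 6794 to 2520. In TPI:NPI 3 of 7 passed, where they fell from 6537 to 3101.

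**Figure D3:**
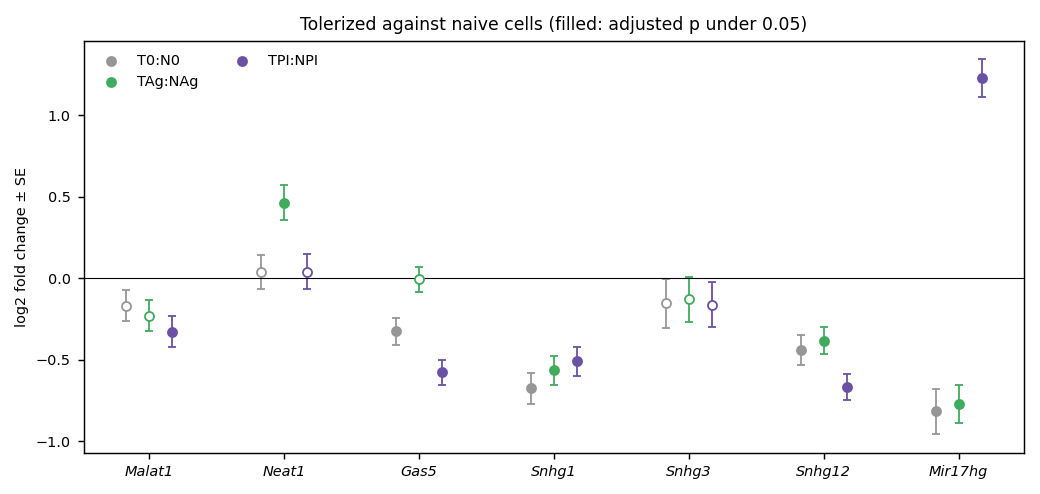
Log2 fold change of tolerized over naive cells (y axis, ± SE) for each RNA (x axis) at rest, after Ag and after PI, from the edgeR model with 3 libraries a group. Filled points had an adjusted p under 0.05; Snhg1 and Snhg12 lie below 0 in all 3 comparisons, and Mir17hg lies at -0.82 and -0.77 and then at 1.23 after PI.

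Snhg1 and Snhg12 were lower in tolerized cells in all 3 states, without overlap of the libraries. For Snhg1 the log2 fold change was -0.68 ± 0.10 in T0:N0 (adjusted p = 3.23e-05), -0.56 ± 0.09 in TAg:NAg (adjusted p = 2.36e-05) and -0.51 ± 0.09 in TPI:NPI (adjusted p = 8.67e-05). For Snhg12 it was -0.44 ± 0.09, -0.38 ± 0.08 and -0.67 ± 0.08 (adjusted p = 0.00126, 6.22e-04 and 7.46e-07). With scores of erythroid and myeloid markers in the model, neither passed the test in T0:N0, and not both did in TAg:NAg. With TMM scaling, neither RNA differed detectably between cell states in its response to Ag or PI. The interaction estimates were 0.11 ± 0.13 and 0.17 ± 0.13 for Snhg1 and 0.06 ± 0.12 and -0.23 ± 0.12 for Snhg12.

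Gas5 was lower in T0 than in N0 by a log2 fold change of -0.33 ± 0.08 (adjusted p = 0.00572), and by -0.58 ± 0.08 in TPI:NPI (adjusted p = 2.48e-06). In TAg:NAg the difference was -0.01 ± 0.08 (adjusted p = 0.976, 95% interval from -0.16 to 0.15), and it was 0.18 with library size alone. The fit with a sex term gave Gas5 -0.30 in T0:N0 (adjusted p = 0.0504). The response of Gas5 to Ag was larger in tolerized cells by 0.32 ± 0.11 (adjusted p = 0.0429), in a contrast where 21.7% of all tested genes were called, and this call was lost with DESeq2 (adjusted p = 0.0807). It was lost as well without any 1 of 7 libraries (N0 replicate 3, NAg replicates 1 and 2, T0 replicates 1 and 2 and TAg replicates 1 and 3), with values of 0.26 to 0.34. For the response of Gas5 to PI the difference was -0.25 ± 0.11, which was not called (adjusted p = 0.121).

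Neat1 did not differ detectably at rest (0.04 ± 0.11 in T0:N0, 95% interval from -0.17 to 0.25) or after PI (0.04 ± 0.11 in TPI:NPI, interval from -0.17 to 0.25). After Ag it was higher in tolerized cells by 0.46 ± 0.11 (adjusted p = 0.00168), with the lowest TAg library, at 2860.5 normalized counts, just above the highest NAg library, at 2858. The fall of Neat1 after Ag was smaller in tolerized cells by 0.42 ± 0.15 (adjusted p = 0.0494). That call was lost with DESeq2 (adjusted p = 0.0662) and without any 1 of 8 libraries (N0 replicates 2 and 3, NAg replicates 1 and 2, T0 replicates 2 and 3 and TAg replicates 1 and 2), with values of 0.33 to 0.44. Neither this value nor that of Gas5 reached 2-fold, as 5.27% of all tested genes did in that contrast.

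Malat1 was lower in TPI than in NPI by -0.33 ± 0.09 on the log2 scale (adjusted p = 0.00745), which was -0.25 without TPI replicate 3 (adjusted p = 0.0643). In T0:N0 it was -0.17 ± 0.09 (adjusted p = 0.224) and in TAg:NAg -0.23 ± 0.09 (adjusted p = 0.0560). The second of these passed the test with DESeq2 (-0.26, adjusted p = 0.0105), with the replicate block (-0.23, adjusted p = 0.0357) and without TAg replicate 1 or 2 (-0.27 and -0.30). Snhg3 was called in none of these 3 comparisons, at -0.15 ± 0.15, -0.13 ± 0.14 and -0.16 ± 0.14 (adjusted p = 0.527, 0.490 and 0.393), with 95% intervals that reached from -0.45 to 0.14.

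Mir17hg was lower in tolerized cells at rest and after Ag, and higher after PI. The log2 fold change was -0.82 ± 0.14 in T0:N0 (adjusted p = 3.92e-04), -0.77 ± 0.12 in TAg:NAg (adjusted p = 3.42e-05) and 1.23 ± 0.12 in TPI:NPI (adjusted p = 1.07e-07), without overlap of the libraries in any of them. Myc went the same way after treatment, at -0.74 in TAg:NAg and 0.46 in TPI:NPI, and was at -0.05 in T0:N0, where it did not pass the test. In the difference between the responses to Ag, Myc was called lower (-0.69), whereas Mir17hg was not called (0.05). In that between the responses to PI both were called higher (0.51 and 2.04). A link between Myc and Mir17hg was not tested.

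Of the small RNAs that the hosts carry, Snora73b and Snora16a lie in annotated introns and had counts of their own, and both were picked after their values had been seen. Snora73b (chr4:131908237-131908441, minus strand), a box H/ACA snoRNA in an intron of Snhg3, had 3335, 1430.2 and 2323 normalized counts in N0 and 2238, 2996 and 3688 in NAg. It had 1766, 1857 and 3313 in T0 and 2532, 3493 and 2588 in TAg, which overlapped. It had 14914, 9484 and 11641 in NPI and 12436, 10928 and 6217 in TPI, above every library of the other 4 groups. The log2 fold change was 0.33 ± 0.37 in NAg:N0 (adjusted p = 0.449) and 0.31 ± 0.36 in TAg:T0 (adjusted p = 0.491), but 2.35 ± 0.38 in NPI:N0 (adjusted p = 1.17e-04) and 2.09 ± 0.37 in TPI:T0 (adjusted p = 2.45e-04). Snhg3 itself rose in all 4 of these comparisons. Snora73b has a close copy, Snora73a, in the same host, so that its counts are uncertain.

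Snora16a (chr4:131865380-131865515, plus strand), in an intron of Snhg12, stayed closer to its host. It had 47.5, 44.9 and 67.4 normalized counts in N0, 127, 135 and 178 in NAg and 101, 94.6 and 100.2 in NPI. In tolerized cells it had 35.4, 30.9 and 35.5 in T0, 123, 109.7 and 117 in TAg and 71.9, 74.6 and 69.0 in TPI. Its log2 fold change was 1.46 ± 0.17 in NAg:N0, 1.78 ± 0.18 in TAg:T0, 0.88 ± 0.17 in NPI:N0 and 1.08 ± 0.18 in TPI:T0, all with an adjusted p under 0.05. Reads from unspliced Snhg3 or Snhg12 and from the snoRNAs themselves cannot be told apart in these counts.

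**Figure D4:**
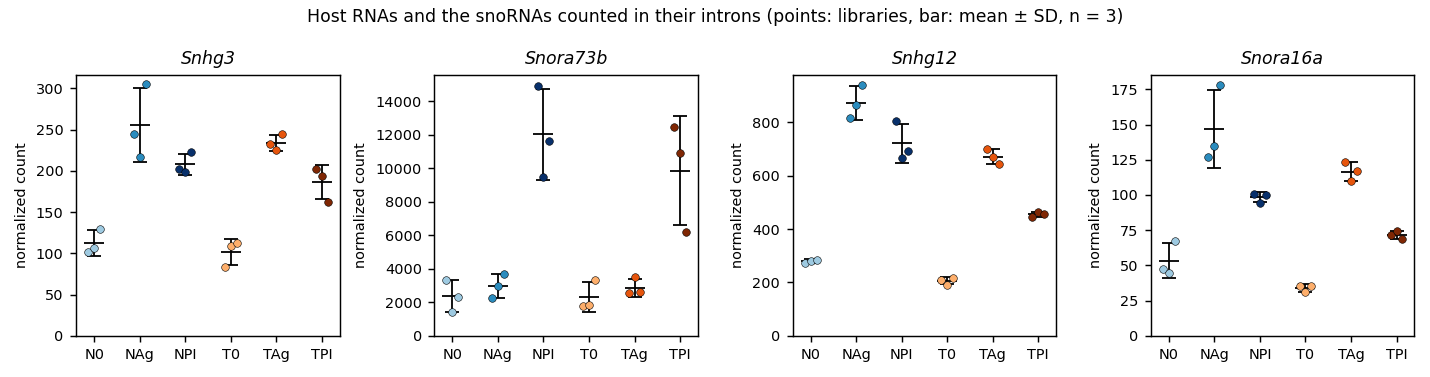
Normalized counts (y axes, linear and starting at 0) of Snhg3 and Snhg12 and of the snoRNA counted in an intron of each, by group (x axes). Points are libraries and bars the mean ± SD (n = 3); Snora73b is high in the 6 PI libraries, whereas Snhg3 is raised after both Ag and PI.

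The snoRNA host RNAs resembled each other most. Likeness was measured as the root mean square difference between centred log2 normalized counts over the 18 libraries, in which 0 means the same pattern. Between Gas5 and Snhg12 it was 0.14, between Snhg1 and Snhg12 0.25, between Gas5 and Snhg3 0.26 and between Gas5 and Snhg1 0.29. The least alike hosts were Snhg3 and Snhg12 at 0.31 and Snhg1 and Snhg3 at 0.45. Neat1 and Mir17hg, at 1.94, were the most unlike pair, and the neighbours Malat1 and Neat1 were at 0.63. Among the 10361 genes whose normalized counts averaged 50 or more, the most like Gas5 were Zfas1 (a further noncoding snoRNA host, 0.12), Snhg12 and Rpl10a (a protein of the large ribosomal subunit, 0.15), and the most like Snhg12 were Gas5, Rpl10a and Hnrnpa1. For Snhg3 they were Pabpc1 (a poly(A)-binding protein, 0.13), Rpl36al and Srsf1, and for Snhg1 they were Slc31a1, Ptma and Tsr2 at 0.18 to 0.20. Malat1 was nearest to Ddx5 (an RNA helicase, 0.10), Setd2 (a histone H3 methyltransferase, 0.11) and Zfp868, and Neat1 to Akap13, Paip2 and Ccdc88c at 0.18. Mir17hg had no gene as near, with Nfkb2 at 0.24, Relb at 0.30 (both NF-κB subunits) and Slc7a1 at 0.32.

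Other genes of the same systems were described from lists. Of 11 tested further noncoding snoRNA hosts, 8 rose and 0 fell in NAg:N0, and 9 rose and 0 fell in TAg:T0, with median log2 fold changes of 2.004 and 1.67. Those with the smallest adjusted p were Snhg16 (2.82 in NAg:N0 and 2.63 in TAg:T0) and Snhg17 (2.48 and 2.27), and larger folds were seen for Snhg4 in NAg:N0 (3.48) and Snhg15 in TAg:T0 (2.99). After PI, 8 rose and 1 fell (Snhg20, -0.65) in NPI:N0, and 9 rose and 0 fell in TPI:T0. The shares of all tested genes called higher were 32.1% in NAg:N0, 29.9% in TAg:T0, 28.6% in NPI:N0 and 32.0% in TPI:T0. These further hosts were lower in tolerized cells at rest (5 of 11) and after Ag (7 of 11), with 0 higher in both. In T0:N0 and TAg:NAg, 12.0% and 18.5% of all tested genes were called lower. The number at rest was 3 without N0 replicate 3 or T0 replicate 1 or with library size alone, 2 with a sex term or only the groups compared, and 0 with the scores of erythroid and myeloid markers, under which 47 of all 17240 tested genes were called. After Ag it was 5 with these scores and 7 under the other settings. After PI, 7 of the 11 were higher in TPI than in NPI and 2 were lower, Snhg5 (-0.74) and Zfas1 (-0.51). These 2 changed in TPI:NPI in the same direction as Gas5, Snhg1 and Snhg12. Of all tested genes, 18.2% were called higher and 19.7% lower in TPI:NPI.

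Of 14 protein-coding snoRNA hosts, 13 rose in NAg:N0 and 14 in TAg:T0, and 0 fell, with median log2 fold changes of 3.03 and 2.84. Examples were Gnl3, a nucleolar GTPase (3.76 and 3.46), and Ppan, a ribosome assembly factor (3.58 and 3.30). They rose by less after PI, with medians of 1.10 in NPI:N0 and 1.41 in TPI:T0. The snoRNP proteins bind snoRNAs and carry out the modification. The mRNAs of all 8 rose in both Ag comparisons, such as Nop58 (3.44 and 3.17) and Dkc1 (3.09 and 2.95). Dkc1 encodes a pseudouridine synthase and is itself a host gene. After PI, 6 of the 8 rose in either cell state, whereas Dkc1 (-0.45) and Nop10 (-0.70) fell in NPI:N0 and Nop10 (-0.31) fell in TPI:T0. All 8 were lower in TAg than in NAg. The shares of all tested genes called higher were 32.1% in NAg:N0, 29.9% in TAg:T0, 28.6% in NPI:N0 and 32.0% in TPI:T0. In TAg:NAg, 18.5% were called lower.

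The mRNAs of the paraspeckle proteins, partners of Neat1, moved otherwise than Neat1 after Ag. Of 12, 10 rose and 2 fell in NAg:N0, and 10 rose and 1 fell in TAg:T0, with medians of 0.67 and 0.61. Sfpq rose by 1.17 and 1.07, while Hnrnph3 fell by 1.10 and 0.43 and Nono fell by 0.20 in NAg:N0. After PI 9 of the 12 rose in NPI:N0 and 10 in TPI:T0. Of 10 genes for factors of nonsense-mediated decay, 5 rose and 2 fell after Ag in both cell states, and Upf1 (0.99 and 0.98) was among those that rose. The shares of all tested genes were 32.1% higher and 33.4% lower in NAg:N0, and 29.9% and 29.8% in TAg:T0. After PI, 28.6% and 32.0% were called higher in NPI:N0 and TPI:T0.

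Of 9 genes for microRNA maturation and action, 5 rose and 4 fell in NAg:N0, and 7 rose and 1 fell in TAg:T0. In TAg:T0, 29.9% of all tested genes were called higher and 29.8% lower. With PI 8 of the 9 fell in NPI:N0 and 7 in TPI:T0, where 32.7% and 36.3% of all tested genes were called lower. Dgcr8, the partner of Drosha in the first cut of a primary transcript such as Mir17hg, fell by 1.74 in NPI:N0 and by 1.30 in TPI:T0, and Drosha fell by 0.89 in TPI:T0. Ago2, which encodes a protein that carries mature microRNAs, rose by 1.35 in NPI:N0 and by 2.17 in TPI:T0. Described targets of the miR-17-92 microRNAs moved both ways. Of 9, 5 rose and 3 fell in NAg:N0 and 3 rose and 2 fell in TPI:T0, where Mir17hg was highest. The shares of all tested genes were 32.1% higher and 33.4% lower in NAg:N0, and 32.0% and 36.3% in TPI:T0. In TPI:T0 Cyld fell by 0.74, whereas the pro-apoptotic gene Bcl2l11 rose by 2.36 and the cell cycle inhibitor gene Cdkn1a rose by 7.08.

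Of 8 further nuclear or microRNA-host noncoding RNAs that were tested, 2 rose and 1 fell in NAg:N0, and 2 rose and 0 fell in TAg:T0, shares no higher than the 32.1% and 29.9% of all tested genes that were called higher. Pvt1, a neighbour of Myc, rose by 3.13 and 2.14. In TPI:T0 Dleu2, host of miR-15a and miR-16-1, rose by 1.69, and Ftx fell by 1.83. Ftx belongs to the X inactivation centre, and the part of the sex of the mice in its change was not tested.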

How the data were processed

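Per the labels and the study's methods, ribosomal RNA was depleted before library preparation. The authors aligned paired-end reads to mm9 with TopHat2 2.1.1 and deposited raw counts per Ensembl gene from HTSeq 0.9.1, not normalized or pooled (versions also in the submitters' processing notes). Symbols and positions came from an annotation of the same build, for 37205 of 37991 genes. The tables held gene rows only. Snhg8 matched by neither its symbol nor older symbols.

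Counts were scaled with TMM and tested with the robust quasi-likelihood F test of edgeR 4.0.16 (R 4.3.3), in 1 model of 6 group means over all 18 libraries. Every adjusted p is a Benjamini-Hochberg value over the 17240 tested genes, and called means an adjusted p under 0.05. Differences in response are interaction contrasts. NPI:NAg and TPI:TAg were added after the data were seen. The p-values measure the spread between 3 libraries a group, and low counts limit precision most for Snhg3.

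The members and lists were chosen with earlier results of these data known. Named are the members, from each list up to 3 genes with the smallest adjusted p in each direction, and for each member the 3 genes most like it; some genes this rule names are not reported here. Alternatives were DESeq2 1.42.0, its size factors in edgeR, library size alone, no filter, only the groups compared, a replicate block, marker scores, a sex term, a 2-fold limit with an average count above 50, and each library left out. Intervals are 95% normal intervals from the edgeR SE. Scripts were tested on simulated data. No 2 libraries were identical.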

Additional observations from a re-analysis of the deposited data

Results flagged for a closer look

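By the test of the difference itself in edgeR, 2 of the 7 RNAs were called in the Ag difference and 1 in the PI difference. Of all tested genes, 21.7% and 20.2% were called in these contrasts. For Mir17hg, the log2 response to PI was larger in tolerized cells by 2.04 (adjusted p = 2.44e-07), with all 3 TPI libraries above all 3 NPI libraries. For Neat1, the fall after Ag was smaller in tolerized cells by 0.42 on the log2 scale (adjusted p = 0.0494). For Gas5, the rise after Ag was larger in tolerized cells by 0.32 (adjusted p = 0.0429). The values for Neat1 and Gas5 lie close to the threshold and were lost under most other settings.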

How the results depend on the processing

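Numbers of called RNAs out of 7 moved as follows. A 2-fold limit with an average count above 50 left 4 in NPI:N0, 4 in TPI:T0, 0 in T0:N0, 0 in TAg:NAg, 1 in TPI:NPI, 0 in the Ag difference, 2 in NPI:NAg and 2 in TPI:TAg. Marker scores of erythroid and myeloid cells left 3 in TPI:T0, 0 in T0:N0, 1 in TAg:NAg, 3 in TPI:NPI and 0 in the Ag difference, and gave 2 in the PI difference. Over all 17240 tested genes, these scores left 5080 calls in TPI:T0, 47 in T0:N0, 2520 in TAg:NAg and 3101 in TPI:NPI. They left 3129 in the Ag difference and 2785 in the PI difference. Library size alone gave 4 in TPI:T0 and 4 in the PI difference, and only the groups compared gave 2 in the latter. Over all genes, library size alone called 13002 of 17283 in TPI:T0 and 4475 in the PI difference. Only the groups compared called 3950 of 16978 in the PI difference. The Ag difference, with 2 calls, had 0 with DESeq2, its size factors, only the groups compared and a sex term, 1 without a filter or with the replicate block, and between 0 and 2 when single libraries were left out. Calls over all tested genes there went from 3734 to 3662 with DESeq2, 3604 with its size factors and 3522 with a sex term. They were 3293 with only the groups compared, 3469 without a filter and 3607 with the replicate block. Correlations between same-numbered replicates ran from -0.195 to 0.11, so the numbers were not taken as pairs. In no comparison did more than 3 of 6 samples correlate best with their own number.

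Signs turned where values were near 0. With library size alone these were Neat1 in TPI:T0 (-0.001), TPI:NPI (-0.07) and the PI difference (-0.22), Gas5 (0.18) and Snhg3 (0.053) in TAg:NAg, Malat1 in the Ag difference (0.007) and Snhg1 in the PI difference (-0.06). With marker scores they were Malat1 in T0:N0 (0.13), Gas5 in TAg:NAg (0.20), Snhg3 (-0.012) and Snhg12 (-0.013) in the Ag difference and Neat1 in the PI difference (-0.003). With only the groups compared they were Gas5 in TAg:NAg (0.01) and Neat1 in the PI difference (-0.084), with a sex term the same 2 (0.01 and -0.033), and with DESeq2 and its size factors Snhg3 in the Ag difference (-0.022 and -0.023). Leaving out single libraries gave Neat1 -0.074 to 0.098 in T0:N0, -0.005 to 0.092 in TPI:NPI and -0.044 to 0.129 in the PI difference. It gave Gas5 -0.057 to 0.042 and Snhg3 -0.233 to 0.02 in TAg:NAg. In the Ag difference it gave Malat1 -0.13 to 0.039, Snhg3 -0.085 to 0.165 and Mir17hg -0.079 to 0.186, and in the PI difference Snhg3 -0.122 to 0.085. The cause was not tested.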
